A study of Homo sapiens with 2 samples.

Results

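CHEK1, CHEK2, ATR, ATM, WEE1, BRCA1, BRCA2, CDC25A and XRCC5 are 9 genes of the DNA damage checkpoint and of DNA repair, out of 33538 genes counted in this single-cell CRISPR screen. They were chosen by name, by a rule that uses no measured value, although earlier results of these data were known when they were chosen. One of them, CHEK1, was itself a target of the screen. The cells were A549-TetOn-Cas9, a line from a human lung adenocarcinoma in which Cas9 sits behind a doxycycline-inducible promoter (the series text speaks of tamoxifen instead, whereas the sample labels name doxycycline). They received a lentiviral pool of 120 gRNAs in the CROPseq-Guide-Puro vector at low multiplicity (0.3 infections per cell), were kept under puromycin, then in doxycycline for 2 days, and were harvested after 5 days of further growth. Of the gRNAs, 100 were directed at 25 genes and 20 were non-targeting. All cells carried the Cas9 construct, were selected and were induced, controls included, and all were 1 pool, measured in 2 libraries from the same cDNA, a transcriptome library and an enriched gRNA library.

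The files held 5744 cell barcodes, shared by both libraries, and 210519208 transcriptome UMIs (unique molecular identifiers, 1 for each captured transcript), with a median of 34625 UMIs per cell and a range of 513 to 161719. Cells in which exactly 1 gRNA had more than 3 UMIs numbered 3189. Of these, 696 held a non-targeting gRNA and served as control cells, and 2493 held a targeting gRNA. Of 12 markers of lung epithelium and A549, 3 or more were seen in 99.7% of the cells. Several of the 12 were rare, however. The surfactant genes SFTPB and SFTPC were seen in only 0.0174% and 0.505%, NKX2-1 in 0.157%, EPCAM in 13.8% and CDH1 in 27.3%. With 1 pool of cells there is no replicate of a condition, so no test was run and no p-value is given. Intervals are exact 95% intervals that cover counting error only, and the spread between 15 single non-targeting gRNAs with at least 10 cells each (13 to 134 cells) is given beside them.

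A cell that meets damaged or unreplicated DNA halts its cycle through 2 kinase branches. ATR senses single-stranded DNA at stalled replication forks and activates the kinase CHEK1, while ATM senses double-strand breaks and activates CHEK2. Both branches restrain the phosphatase CDC25A, which otherwise frees the cyclin-dependent kinases for S phase and mitosis, and WEE1 holds the same kinases back by the opposite reaction. Breaks are then mended by homologous recombination, in which BRCA1 and BRCA2 help to load the recombinase onto DNA, or by end joining, in which XRCC5 (also known as Ku80) binds the broken ends.

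The 9 transcripts differed widely in level over all cells, with XRCC5 far above the others and CDC25A lowest. Levels are given as CPM, the UMIs of a gene scaled to 1000000 UMIs over all cells. Since 3′ end counting gives a transcript 1 tag whatever its length, levels of different genes were compared without division by length, and capture can still differ between transcripts. Among the sensor kinases, ATR (chromosome 3, from 142449007 to 142578733 on the minus strand of GRCh38) had 9.80 CPM, from 2063 UMIs in 28.2% of cells. ATM (chromosome 11, 108223044 to 108369102, plus strand) had 16.6 CPM, from 3496 UMIs in 42.6% of cells. The sensor of breaks was therefore read at a higher level than the sensor of stalled forks.

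Of the effector kinases that they activate, CHEK1 (chromosome 11, 125625163 to 125676255, plus strand) stood at 23.1 CPM, from 4860 UMIs, and a UMI was found in 48.6% of cells (95% interval 47.3 to 49.9). CHEK2 (chromosome 22, 28687743 to 28742422, minus strand) stood at 8.57 CPM, from 1804 UMIs, in 25.5% of cells. GENCODE lists 7 pseudogene copies of CHEK2, so reads that fall on more than 1 copy may not have been assigned to it and its level is uncertain. WEE1 (chromosome 11, 9573670 to 9593457, plus strand) had 23.5 CPM in 47.2% of cells, and CDC25A (chromosome 3, 48157146 to 48188417, minus strand) had 3.66 CPM in 11.3% of cells, from only 770 UMIs. WEE1 and CHEK1 were thus the highest of the checkpoint genes, and the phosphatase that WEE1 opposes was the lowest.

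The repair genes were BRCA1 (chromosome 17, 43044295 to 43170245, minus strand) at 59.5 CPM in 59.2% of cells, BRCA2 (chromosome 13, 32315086 to 32400268, plus strand) at 13.3 CPM in 28.8% of cells, and XRCC5 (chromosome 2, 216107464 to 216206303, plus strand) at 264 CPM in 94.1% of cells. XRCC5 was 4.44 times as high as BRCA1, the next gene in order, and BRCA1 was 2.53 times as high as WEE1. WEE1 and CHEK1 could not be told apart, since their ratio was 1.02 (0.977 to 1.06). Each of the other neighbours in the order differed beyond counting error, the closest being ATR over CHEK2 with a ratio of 1.14 (1.07 to 1.22). The pool held 1 cell line and no cell type that lacks these genes, so the share of cells with a UMI from free RNA could not be measured.

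**Figure D1:**
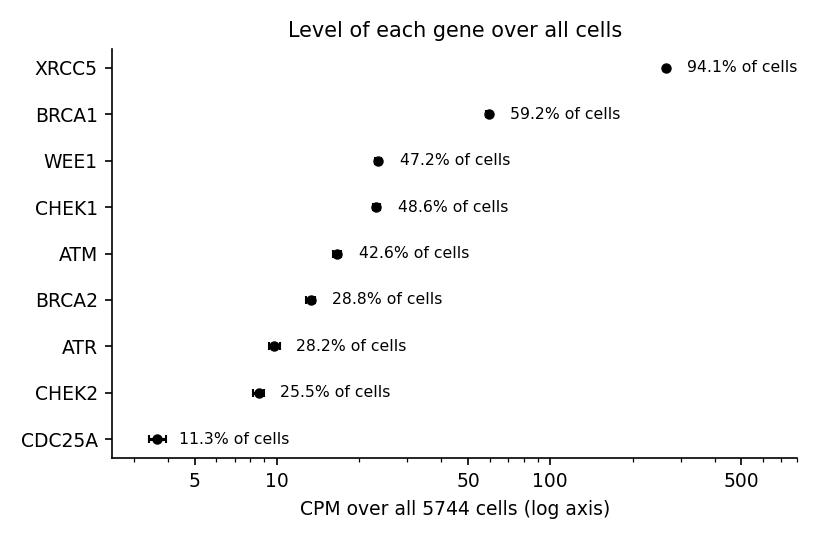
Level of each of the 9 genes over all 5744 cells in CPM (log axis), with the share of cells that had at least 1 UMI beside each point. Bars are exact 95% counting intervals, mostly narrower than the points. XRCC5 lies at 264 and CDC25A at 3.66, with WEE1 and CHEK1 side by side.

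The next comparison asked how the genes followed the cell cycle. PCNA, the sliding clamp of the replication fork, marks cells in S phase, and CCNB1, the cyclin that drives mitosis, accumulates in G2. The 5317 cells with at least 10000 UMIs were ranked by the share of their UMIs from PCNA, and separately from CCNB1, and split by rank into 4 bands of 1329 or 1330 cells. From the lowest to the highest PCNA band, PCNA itself went from 24.1 to 335.2 CPM, and from the lowest to the highest CCNB1 band CCNB1 went from 0.521 to 417.5 CPM. Between the PCNA end bands 32 of 32 S phase genes were higher (median log2 ratio 2.29), but so were 52 of 52 G2/M genes (1.91). A high PCNA band is therefore not S phase alone. BRCA2, BRCA1, CDC25A and CHEK1 varied most with PCNA, WEE1 and XRCC5 less, CHEK2 and ATR little, and ATM not beyond counting error in this ranking.

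BRCA2 read 2.97, 8.38, 16.8 and 23.0 CPM from the lowest to the highest PCNA band, a ratio of 7.76 (6.53 to 9.28) between the ends. BRCA1 read 16.8, 36.6, 68.4 and 108.4 CPM, a ratio of 6.44 (5.99 to 6.94). Both genes of homologous recombination were higher in each band than in the one before, with intervals that do not overlap. CDC25A, the phosphatase, read 1.36, 2.25, 3.86 and 6.49 CPM, a ratio of 4.77 (3.66 to 6.30), although the lowest band rests on 66 UMIs. CHEK1 read 11.6, 18.5, 26.0 and 34.4 CPM, a ratio of 2.97 (2.70 to 3.27). The effector kinase of the replication branch was therefore graded over the bands in the same order as the recombination genes, with a smaller span.

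WEE1 read 14.7, 20.2, 27.3 and 30.0 CPM, a ratio of 2.04 (1.87 to 2.23), and XRCC5 read 200.7, 255.6, 287.9 and 309.3 CPM, a ratio of 1.54 (1.5 to 1.58). ATR read 7.84, 9.79, 9.91 and 11.2 CPM, with a ratio of 1.43 (1.26 to 1.63), and CHEK2 read 7.16, 8.32, 9.38 and 9.44 CPM, with a ratio of 1.32 (1.15 to 1.52). ATM read 15.7, 16.9, 16.8 and 16.7 CPM, and its ratio of 1.06 (0.965 to 1.17) included 1. In this ranking ATM was the one gene of the 9 whose interval included no difference. This rested on the ranking, since with cells ranked by 32 S phase genes ATM was at 1.11 (1.01 to 1.23), and after thinning each cell to 10000 UMIs the interval of CHEK2 included 1 as well, at 1.14 (0.873 to 1.49).

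Past a log2 ratio of 0.5 (1.41-fold), 5 of the 8 genes with at least 5 CPM were higher in the highest PCNA band (CHEK1, WEE1, BRCA1, BRCA2 and XRCC5), where 11.5% of 9485 genes were. None of the 8 was lower past that ratio, where 3.41% of genes were. CDC25A, under 5 CPM and outside that count, was also higher past it. The median log2 ratio of the 8 genes was 0.80, against 0.06 for all genes tested, and 0.98 for the 9 genes with CDC25A included. Median UMIs per cell also differed between the PCNA bands, at 31364.5, 33997, 38200 and 40002, so each cell was thinned to 10000 UMIs and ranked anew. The ratios were then 3.39 for BRCA2, 3.13 for BRCA1, 2.38 for CDC25A, 2.16 for CHEK1 and 1.51 for WEE1, and XRCC5, at 1.30, was no longer past 1.41-fold. The new ranks rest on fewer PCNA UMIs per cell, so these ratios differ from the first in more than depth. With the first bands kept, BRCA1 had a UMI in 14.7, 24.5, 40.8 and 60.0% of thinned cells. XRCC5 had one in 81.4, 87.8, 91.3 and 93.5%, and ATM in 15.1, 13.3, 16.3 and 14.7%. With cells ranked by 32 S phase genes in place of PCNA, the ratios were 29.8 for BRCA2, 15.7 for BRCA1, 12.4 for CDC25A, 3.65 for CHEK1, 3.02 for WEE1, 1.72 for XRCC5, 1.49 for ATR and 1.16 for CHEK2. CHEK2 thus had the lower ratio in this ranking, and ATR changed little.

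Along CCNB1 the genes did not all peak at the same place. CDC25A read 2.94, 3.80, 4.99 and 2.76 CPM, so that the band richest in CCNB1 was again as low as the poorest, with a ratio of 0.940 (0.749 to 1.18). BRCA1 likewise was highest in band 3, with 36.7, 53.8, 81.7 and 64.9 CPM. BRCA2, at 7.72, 9.80, 17.3 and 17.5 CPM, kept its level in band 4, and so did CHEK1 at 17.0, 20.6, 28.2 and 26.2 CPM, within overlapping intervals. WEE1, which acts on the mitotic kinase, read 17.0, 20.3, 26.7 and 28.9 CPM, and XRCC5 read 219.2, 239.3, 285.2 and 312.6 CPM. XRCC5 was highest in the cells richest in CCNB1 beyond its counting interval. For WEE1 the intervals of bands 3 and 4 overlapped (25.4 to 28.2 and 27.5 to 30.3 CPM).

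CHEK2 read 7.39, 8.14, 8.26 and 10.5 CPM along CCNB1, ATR 8.24, 9.5, 10.7 and 10.5 CPM, and ATM 16, 17.9, 17.4 and 15 CPM. For CHEK2 the only neighbouring bands with separate intervals were thus 3 and 4, so that CHEK2, like XRCC5, was highest in band 4. ATM again showed no difference beyond counting error between the ends, with a ratio of 0.938 (0.852 to 1.03). Between the end bands, 5 of the 8 tested genes were higher past 1.41-fold (CHEK1, WEE1, BRCA1, BRCA2 and XRCC5), as were 11.5% of all genes, and none was lower, as were 6.42% of all genes. After thinning and ranking anew, on fewer CCNB1 UMIs per cell, only WEE1 and BRCA2 remained past it, at 1.44 and 1.86.

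**Figure D2:**
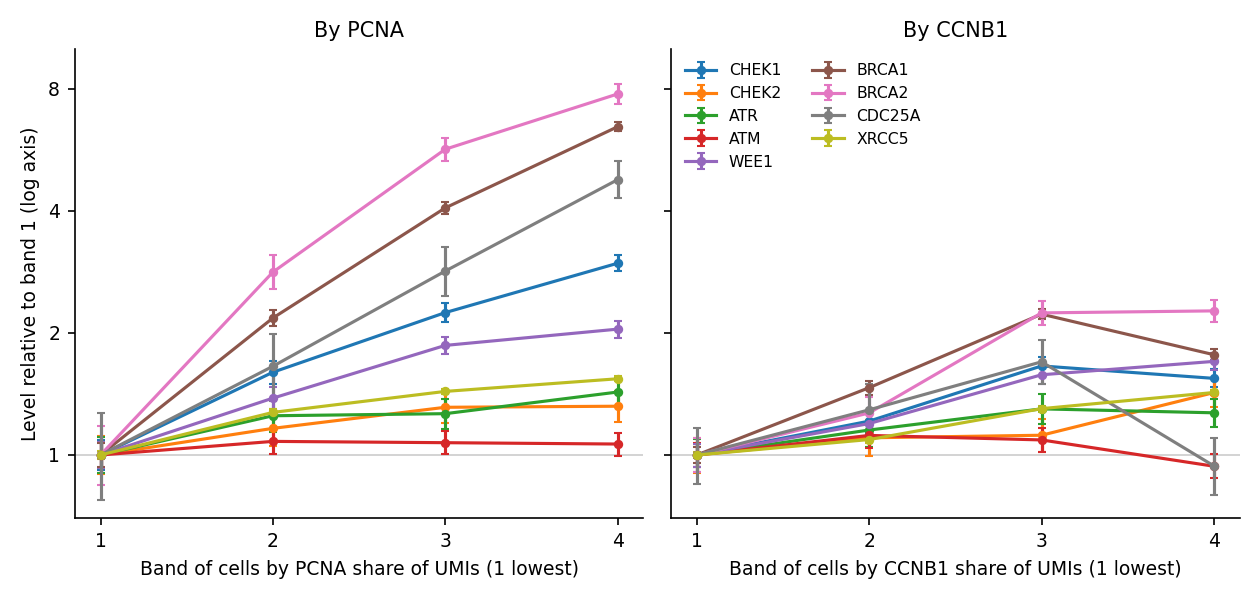
Level of each of the 9 genes relative to the lowest band of cells (log axis), by band of the PCNA share (left) and of the CCNB1 share (right) of a cell's UMIs, in 5317 cells. Bars are exact 95% counting intervals of each level. BRCA2 and BRCA1 climb furthest along PCNA while ATM stays flat, and along CCNB1 CDC25A returns to its starting level in band 4.

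Crossing both medians gave 4 classes of cells. BRCA1 read 17.6 CPM where both markers were low, 90.4 where only PCNA was high, 87.3 where both were high and 43.1 where only CCNB1 was high. CDC25A read 1.47, 6.51, 4.51 and 2.42 CPM in the same classes. CDC25A was thus highest where PCNA was high without CCNB1, and lower, beyond its counting interval, once both were high. WEE1, at 14.0, 26.2, 29.9 and 23.7 CPM, was instead highest where both were high, and ATM stayed between 16.2 and 17.8 CPM in all 4 classes.

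Crossing the PCNA and CCNB1 bands gave 16 bins of 114 to 560 cells, over which the pattern of each gene was set against that of every gene with at least 5 CPM. The bins share 1 library, and depth differs between them, so these correlations are descriptions. CHEK1 was most like DSCC1, FEN1 and ORC6 (Pearson r over the 16 bins of 0.99 for each). BRCA1 was most like CLSPN, ATAD2 and HELLS (0.997, 0.996 and 0.995), and BRCA2 was most like ORC6, RFC2 and RPA1 (0.99 each). FEN1, ORC6, RFC2 and RPA1 act at replication origins or forks. WEE1 was most like BAZ1B, DNMT1 and RRM1 (0.99, 0.98 and 0.98), CDC25A most like KHK, CDCA7L and MCM6 (0.98, 0.98 and 0.97), and XRCC5 most like TOMM40, RANBP1 and TIMELESS (0.99 each). The remaining genes had weaker likenesses, with ATR at most 0.88 (PAFAH1B3, then DNAJB11 and ARL3), CHEK2 at most 0.90 (XPOT, then YLPM1 and PNPT1) and ATM at most 0.84 (CDK6, then CCDC142 and CHMP2B).

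Among the 9 genes, CHEK1 and BRCA1 had the highest correlation over the bins (0.985), followed by CHEK1 and BRCA2 (0.984). The partners named by the 2 branches were less alike, with 0.770 for ATR and CHEK1 and -0.379 for ATM and CHEK2. WEE1 and CDC25A, which act against each other on the same kinases, correlated at 0.709. The span between lowest and highest bin was 14.8-fold for BRCA2, 11.1-fold for BRCA1, 7.96-fold for CDC25A and 1.42-fold for ATM.

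Since BRCA1, BRCA2 and CDC25A moved together with PCNA and ATM did not, the bases before the transcription starts of these 4 genes are shown, from the RefSeq promoter table on GRCh38.p14, in gene orientation and trimmed to the longest stretch that no annotated exon covers. Capitals mark the pentamer CCAAT, the words TTTCCCGC, TTTGGCGC, TTTCGCGC and TTTGCCGC that E2F factors bind, and the words TTTGAA and TTCGAA of the cell cycle homology region, on either strand.
BRCA1, chr17:43125484-43125550, minus strand: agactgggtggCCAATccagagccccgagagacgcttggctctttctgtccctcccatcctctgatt
BRCA2, chr13:32315364-32315504, plus strand: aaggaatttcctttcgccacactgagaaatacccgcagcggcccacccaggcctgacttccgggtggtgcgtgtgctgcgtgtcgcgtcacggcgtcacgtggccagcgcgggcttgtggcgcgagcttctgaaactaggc
CDC25A, chr3:48188418-48188667, minus strand: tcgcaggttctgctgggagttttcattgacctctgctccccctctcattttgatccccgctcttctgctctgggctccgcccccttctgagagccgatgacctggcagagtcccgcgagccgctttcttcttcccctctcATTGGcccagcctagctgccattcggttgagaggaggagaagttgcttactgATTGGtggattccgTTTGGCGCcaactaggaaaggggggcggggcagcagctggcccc
ATM, chr11:108222817-108223043, plus strand: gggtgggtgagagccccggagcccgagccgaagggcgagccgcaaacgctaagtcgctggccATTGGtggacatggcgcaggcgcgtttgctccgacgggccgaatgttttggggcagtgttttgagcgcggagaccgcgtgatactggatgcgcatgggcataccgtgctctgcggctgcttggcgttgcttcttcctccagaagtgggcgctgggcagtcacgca

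Over the whole 250 bases before each start, CDC25A held the only E2F word, TTTGGCGC, starting 44 bases before the start, and CCAAT 110 and 58 bases before it, both on the minus strand. BRCA1 held CCAAT 175 bases before its start, and BRCA2 held none of the words. ATM, the flat gene, held CCAAT 188 bases and TTTGAA 20 bases before its start, the second outside the stretch shown. No match overlapped another, and a match describes letters, not a bound site. Of 35116 windows of that length in the table, 2.79% held an E2F word, 32.0% CCAAT and 14.3% a word of the cell cycle homology region. In ATR none of the words was found, and in CHEK2 CCAAT was found 199, 70 and 40 bases before the start. For CHEK1 the nearest window in the table starts 1061 bases past the start of its reference transcript, so none is shown, nor for WEE1 and XRCC5.

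CHEK1 was the one gene of the 9 that the screen was designed to cut, with 4 gRNAs, so its own transcript was read first in the cells that carried them. Over all 173 such cells CHEK1 was at 20.2 CPM (136 UMIs), or 87.6% (72.2 to 105.8) of the 23.0 CPM in control cells (579 UMIs). The interval included 100%, so no loss of transcript was detectable at this depth, and by these bounds a fall below 72.2% lay outside the counting error. Against the 2269 cells with 0 gRNAs above 3 UMIs, a second control chosen after the data were seen, CHEK1 was at 84.0% (70.0 to 99.99), so the interval then ended just under 100%. Such cells may hold gRNAs that were not detected. A cut can shift the reading frame without lowering the transcript, so the level does not show whether the protein was lost. The share of cells without any CHEK1 UMI was 51.4% with CHEK1 gRNAs and 52.2% in control cells. Cells with 4 or more CHEK1 UMIs made up 2.31% and 3.45%.

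The 4 gRNAs were found in unequal numbers of cells. CHEK1 gRNA1 was alone in 4 cells, with 2 CHEK1 UMIs and 82.8% of control (10.0 to 300.3). CHEK1 gRNA2 was alone in 34 cells, with 19 UMIs and 71.6% (42.8 to 112.8). CHEK1 gRNA3, which made up most of the pool, was alone in 124 cells, with 109 UMIs and 92.7% (74.9 to 114.0). CHEK1 gRNA4 was alone in 11 cells, with 6 UMIs and 68.9% (25.2 to 150.9). All 4 lay below control and each interval included it. In log2 with 1 CPM added, the 3 gRNAs with at least 10 cells were at -0.46, -0.10 and -0.51, where the 15 non-targeting gRNAs ran from -0.47 to 0.57.

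The gRNA names place the sites on chromosome 11 at 125496694 (gRNA1), 125499167 (gRNA2), 125507376 (gRNA3) and 125513716 (gRNA4), with gRNA3 on the minus strand and the others on the plus strand. These positions belong to a build that is not named, since none of the 4 falls inside CHEK1 as annotated on GRCh38 and 4 of the 100 targeting gRNAs lie past the end of their GRCh38 chromosome. The exons hit were therefore not assigned. Leaving out gRNA3 put CHEK1 at 71.7% of control in the remaining cells.

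**Figure D3:**
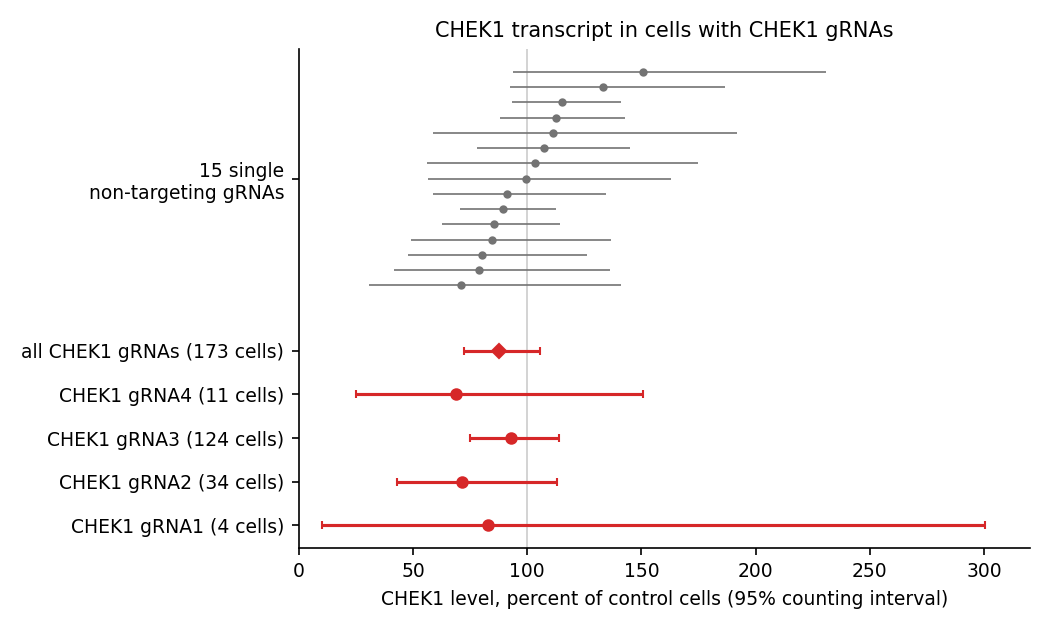
CHEK1 level as percent of control cells in cells with each CHEK1 gRNA and in all 173 cells (red, number of cells in the label), and for each of 15 single non-targeting gRNAs against the other control cells (grey). Bars are exact 95% counting intervals. All 4 CHEK1 gRNAs lie between 68.9% and 92.7%, inside the cloud of non-targeting gRNAs apart from gRNA4, and each bar crosses 100%.

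In the same 173 cells 8 of the 9 genes were below control, with a median log2 ratio of -0.17 against 0.00 for all genes, of which 49.96% were below 0. The 9 include CHEK1, the target itself, and CDC25A, which is under the 5 CPM required of all genes. WEE1 stood at 19.1 CPM against control, 76.5% (62.8 to 92.6), and BRCA1 at 56.1 CPM, 88.9% (79.3 to 99.5). These were 2 of 7 tested genes (CHEK1 left out) with an interval below control, where 5.49% of all genes had one. XRCC5, at 294.3 CPM and 112.7% (107.2 to 118.6), was the 1 of 7 above control, where 6.82% of genes were. No tested gene passed 1.41-fold either way, as 1.05% of genes did. Against cells with 0 gRNAs WEE1 was at 79.6% (66.1 to 95.2) and XRCC5 at 108.9% (104.0 to 114.0), while the interval of BRCA1 included control, at 91.2% (81.9 to 101.3).

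For the other genes the interval included control. ATR was at 82.7% (61.0 to 110.6), CDC25A at 79.6% (45.8 to 131.8), ATM at 88.0% (69.7 to 110.2), CHEK2 at 94.1% (68.9 to 126.7) and BRCA2 at 98.5% (77.1 to 124.8). None of the 9 lay beyond the lowest or highest non-targeting gRNA. In the CHEK1 pool 53.3% of cells were above the PCNA median, against 48.9% of control cells, and ratios standardised over the 4 cell cycle classes were close to the crude ones (76.9% for WEE1, 86.3% for BRCA1 and 111.7% for XRCC5).

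The single gRNAs differed from each other in these genes. With gRNA2, BRCA1 was at 56.4% (40.3 to 76.9) and WEE1 at 38.2% (19.0 to 68.7) of control, both below every single non-targeting gRNA, as was XRCC5. With gRNA3 the same genes were at 100.9% (89.3 to 113.8) and 84.6% (68.3 to 103.9). For XRCC5 the value under gRNA2 was 82.4% (72.3 to 93.6) and under gRNA3 119.9% (113.5 to 126.7), so the 2 gRNAs lay on opposite sides of control. Set directly against each other, cells with gRNA2 held 45.1% (21.9 to 84.0) of the WEE1, 55.9% (39.4 to 77.5) of the BRCA1, 44.3% (18.5 to 91.5) of the BRCA2 and 68.7% (59.9 to 78.6) of the XRCC5 found with gRNA3. ATM went the other way, at 168.7% (100.8 to 273.9). ATR at 162.0% and CHEK2 at 147.6% were also higher with gRNA2, and CHEK1 at 77.2% was lower, each with an interval that included 100%. Against control, ATM was at 76.3% (57.5 to 99.6) with gRNA3 and at 128.7% (81.5 to 194.2) with gRNA2.

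CDC25A had 0 UMIs in the 34 cells with gRNA2, with an upper bound of 92.3% of control. With gRNA4 and its 11 cells, BRCA1 was at 29.3% (11.8 to 60.6) and BRCA2 had 0 UMIs, with an upper bound of 73.2%, while ATM was at 130.7% (56.0 to 259.9). Without gRNA3 the pool stood at 51.3% for WEE1, 51.4% for BRCA1, 41.1% for BRCA2 and 90.4% for XRCC5, so the value of XRCC5 above control rests on gRNA3. WEE1 and XRCC5 with gRNA4 were at 95.1% (43.3 to 181.7) and 108.3% (88.7 to 131.1). The share of cells above the PCNA median was 45.2% (27.3 to 64.0) for gRNA2, 57.9% (48.5 to 66.8) for gRNA3 and 27.3% (6.02 to 61.0) for gRNA4, with overlapping intervals. Of these 4 genes BRCA1 and BRCA2 lay in the same order as the share, and WEE1 and XRCC5 did not. Its part in the difference between the gRNAs was not tested.

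Lists of damage response genes outside the 9 and the targets were read in the same 173 cells. Of 14 genes of ATR activation and fork protection, 9 were below control and 5 above, none with an interval off control (median log2 ratio -0.02). The furthest were ATRIP, the partner of ATR, at 73.7% (48.8 to 108.2), RAD1, part of the clamp that ATR needs, at 83.2% (68.6 to 100.5), and TOPBP1, which activates ATR, at 85.0% (70.3 to 102.2). Of 11 genes of ATM activation and break signalling, 5 were below and 6 above (median 0.01), with MDC1, a scaffold at breaks, at 109.7% (79.7 to 148.9) and RIF1, which limits the resection of broken ends, at 93.2% (82.6 to 104.9). All 11973 genes measured in both pools had a median log2 ratio of -0.00275.

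Among 13 checkpoint effectors 9 were below (median -0.09), and PLK1, a mitotic kinase, was the 1 with an interval below control, at 85.0% (76.0 to 94.9). CDC7, a kinase that fires replication origins, was at 65.5% (33.3 to 119.1) and PPM1D, a phosphatase that ends the checkpoint, at 81.6% (58.6 to 111.6). Among 15 measured genes of homologous recombination 9 were below (median -0.08), with PALB2, the bridge between BRCA1 and BRCA2, at 69.8% (47.2 to 100.6), BRIP1, a helicase that binds BRCA1, at 120.4% (86.0 to 166.1) and RAD54B at 81.7% (49.6 to 129.3). The 1 interval below control in that list was that of SEM1, a partner of BRCA2, at 94.5% (90.1 to 99.1).

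Of 8 measured genes of end joining 5 were below (median -0.05), none with an interval off control. The furthest were the nuclease DCLRE1C at 84.8% (63.0 to 112.6), XRCC4, a partner of the ligase, at 87.6% (65.3 to 115.9) and the polymerase POLL at 91.8% (72.7 to 115.1). Of 12 Fanconi anaemia genes 9 were below (median -0.08), and 2 had an interval below control, FANCG at 77.6% (61.0 to 97.7) and FANCI at 86.3% (74.6 to 99.5). FANCM was at 126.2% (87.9 to 178.2), FANCB at 119.8% (85.9 to 164.6) and FANCL at 83.8% (66.7 to 104.4), with intervals that included control. No gene of these 6 lists passed 1.41-fold in either direction, and only 1.05% of genes with at least 5 CPM did. Of those genes, 49.96% were below control and 5.49% had an interval below it. The counts of the 6 lists stand beside these shares and are not read as an excess.

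Of 52 G2/M genes 40 were below control (median -0.08), where 49.96% of all genes were. An interval below control was found for 10 of them, against 5.49% of all genes, and 1 above, against 6.82%. Summed, the G2/M genes were at 0.965 times the control level in the CHEK1 pool. Pools of other targets with at least 40 cells ran from 0.674 (DHODH) to 1.13 (TRIM28), with TUBB1 at 0.822. A level under control was thus not particular to the CHEK1 gRNAs. NDC80, a kinetochore protein, was at 73.7% (55.6 to 96.4), the kinetochore motor CENPE at 76.0% (64.6 to 89.0) and SMC4, a condensin subunit, at 84.1% (77.3 to 91.5), while CDC20, an activator of the anaphase ligase, was at 111.9% (101.7 to 123.0). Of 32 S phase genes 16 were below (median -0.00), 1 with an interval below control and 1 above. These were POLD3, a polymerase subunit, at 76.4% (63.4 to 91.7) and the helicase subunit MCM6 at 121.8% (104.8 to 141.2), and CDC45, which acts in the same helicase, was at 78.3% (60.0 to 101.0).

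The same lists along PCNA placed the 9 genes among their partners. The median log2 ratio between the end bands of PCNA was 1.58 for the Fanconi anaemia genes, 1.55 for homologous recombination, 1.19 for ATR activation and fork protection, 0.96 for checkpoint effectors, 0.56 for end joining and 0.40 for ATM activation. For the S phase genes it was 2.29 and for the G2/M genes 1.91, both above every damage list named here. Past 1.41-fold were 12 of 15 genes of homologous recombination and 11 of 12 Fanconi anaemia genes, and 4 of 11 of ATM activation, where 11.5% of all genes were. BRCA1 and BRCA2, at 2.62 and 2.60, were above the median of the recombination list, while XRCC5 at 0.62 and ATM at 0.08 were near or under the medians of theirs.

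Outside the damage lists, the genes furthest from control in the CHEK1 pool, with gRNA2, gRNA3 and gRNA4 each on the same side, were no damage response genes by these lists. The 10 lowest were ZFP90 (log2 ratio -0.82), DIO2, IFIT1, TSGA10, TCF4, HLX, CACNG6, HIST1H1D, NEK8 and ZSCAN29 (-0.68). The 10 highest were LINC01137 (0.72), ANXA8L1, PRICKLE3, C3, TNS4, PKP4, NTRK3, OSBPL7, PKDCC and AFF1 (0.52). They were picked as extremes, so their values are a description.

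The last comparison asked whether these 9 genes differed from control in cells with gRNAs against the other targets, mostly chromatin genes. A label does not show that the target was lost, and mutations in gRNAs were not analysed here. The target's own transcript had an interval below control in the pools of DEK (75.1%), SMARCD1 (66.1%), SUV39H1 (50.3%) and TRIM28 (71.6%). That interval included control for HAT1 (98.1%), HELLS (93.0%), TET1 (101.8%), TDG (81.3%) and KAT2B (34.3%). For most other pools named below it is given with the pool. There were 21 other pools of at least 40 cells, which share 1 set of control cells, and hence 189 pairs of a gene and a pool. The interval lay below control in 19 pairs and above it in 5. Over the 168 pairs of the 8 genes with at least 5 CPM, the counts were 19 and 4, where 6.09% of all gene and pool pairs lay below and 5.46% above. A ratio lower past 1.41-fold was found in 11 of 168, against 3.01% of all pairs, and a higher one in 0 of 168, against 1.62%. With CDC25A, whose pools hold few UMIs, these counts were 16 and 2 of 189.

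BRCA1 was under control in 18 of the 21 pools and its interval lay below control in 9, with a median log2 ratio of -0.14. WEE1 was under control in 15 pools with 5 such intervals. BRCA2 had 2, and CHEK1, ATM and XRCC5 had 1 each. CHEK2, ATR and CDC25A had none. All pools share the control cells, and these lay high for BRCA1, at 63.0 CPM (60.0 to 66.2) against 59.5 over all cells and 61.5 (59.8 to 63.3) in cells with 0 gRNAs, and for WEE1, at 25.0 CPM against 23.5 and 24.0.

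Against the cells with 0 gRNAs in place of the control cells, BRCA1 was lower in 17 of the 21 pools with 7 intervals below. WEE1 was lower in 15 with 2 such intervals. XRCC5, of which control cells held 96.6% (93.9 to 99.3) of the level in cells with 0 gRNAs, was lower in 16 pools and had 7 intervals below and 2 above. How often BRCA1 was low in comparison with the other 8 genes thus depended on the control. Over the 9 genes 22 intervals lay below and 6 above. The share over all genes was not counted against this control, so none of these counts is read as an excess. BRCA1 stayed lower in the pools of DHODH at 49.5% (35.3 to 67.4), MVD at 59.0% (47.4 to 72.5) and RPL18 at 66.9% (52.5 to 84.0).

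Within 5 of the 189 pairs the value was below each of the 15 single non-targeting gRNAs, and in 0 above, and 4 of these 5 also had an interval off control. They were BRCA1 and BRCA2 in the DHODH pool, BRCA1 in the MVD pool and ATM in the PCGF5 pool. The share of all gene and pool pairs below each non-targeting gRNA was not counted, so the 5 pairs are not read as an excess.

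DHODH makes pyrimidines, and its own transcript was at 54.5% (27.0 to 98.6) of control in its pool. The pool of 44 cells held BRCA1 at 48.2% (34.3 to 66.0) of control and BRCA2 at 39.7% (15.8 to 82.8). The 4 DHODH gRNAs, with 7, 14, 14 and 9 cells, put BRCA1 at 24.8%, 62.2%, 61.5% and 12.1%. All 4 were thus below control, and leaving out any one kept BRCA1 between 39.0% and 57.3% with its interval below control. BRCA2 rested on 7 UMIs, 5 of them with gRNA3, and its interval reached control without gRNA2 (48.0%) or without gRNA4 (49.6%). In this pool 32.4% of cells were above the PCNA median, against 48.9% of control cells and 33.3 to 59.4% for single non-targeting gRNAs. Standardised over the cell cycle classes, BRCA1 stood at 59.3% and BRCA2 at 49.4%. The summed S phase genes were at 0.716 times and the summed G2/M genes at 0.674 times the control level in the DHODH pool. PCNA was at 0.883 times that level. The part of these lower levels in the values of BRCA1 and BRCA2 was not tested.

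MVD acts in the mevalonate pathway that leads to cholesterol, and its own transcript was at 117.3% (87.3 to 155.0), so its label had no check at the transcript. The pool of 69 cells held BRCA1 at 57.5% (46.1 to 71.0) and WEE1 at 58.3% (40.7 to 81.3). The MVD gRNAs with 18, 16 and 34 cells put BRCA1 at 53.8%, 61.3% and 61.3%, and BRCA1 stayed between 53.5% and 59.3% with any one left out. WEE1 was less even, at 18.5%, 85.0% and 71.1%, and its interval included control without gRNA1 (72.0%). The share of cells above the PCNA median was 44.6%, and BRCA1 standardised over the classes was at 61.0%. In the same pool the summed S phase genes were at 0.789 times and PCNA at 0.843 times the control level. Their part in the value of BRCA1 was not tested.

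RPL18 codes for a ribosomal protein, and its own transcript was at 90.6% (88.5 to 92.9). Its pool of 46 cells held BRCA1 at 65.2% (51.0 to 82.3), BRCA2 at 57.3% (31.0 to 97.5) and WEE1 at 68.0% (45.8 to 97.5). Here 33.3% of cells were above the PCNA median, and the standardised values were 93.3%, 82.0% and 83.0%. Of these standardised values, that of BRCA1 was the nearest to control. They have no interval and rest on the 42 cells with at least 10000 UMIs, whereas the first values rest on all 46. The part of the cell cycle classes in the values of BRCA1, BRCA2 and WEE1 was not tested. In this pool 12.0% of all genes had an interval below control and the median of all genes was -0.07, so the genes stood beside a wider shift.

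BRCA1 was also below control in the pools of UHRF1 (74.9%, 61.4 to 90.6), TUBB1 (78.8%, 67.3 to 91.9), SUV39H1 (80.2%, 66.9 to 95.5), HDAC2 (81.5%, 72.3 to 91.6), TRIM28 (85.1%, 72.2 to 99.9) and HAT1 (89.5%, 80.1 to 99.9). Leaving out each gRNA in turn, 6 of the 24 pairs kept their interval off control throughout. All 6 were BRCA1, in the pools of DHODH, MVD, RPL18, UHRF1, TUBB1 and HDAC2. The 24 pairs had been picked for an interval off control and were read again in the same cells. The share of all gene and pool pairs that would keep theirs was not counted, so the 6 are not read as an excess. Control cells held 1586 UMIs of BRCA1, against 629 of WEE1, 407 of ATM and 89 of CDC25A, but 6565 of XRCC5. The part of UMI number in which pairs were kept was not tested. TUBB1, a tubulin of platelets, had 0 UMIs in its pool and 0 in control cells, so a value of BRCA1 below control was also found with gRNAs against a gene without a detected transcript. UHRF1 and HDAC2, which act on chromatin, were at 74.4% (46.0 to 114.7) and 83.4% (72.4 to 95.7) in their own pools.

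**Figure D4:**
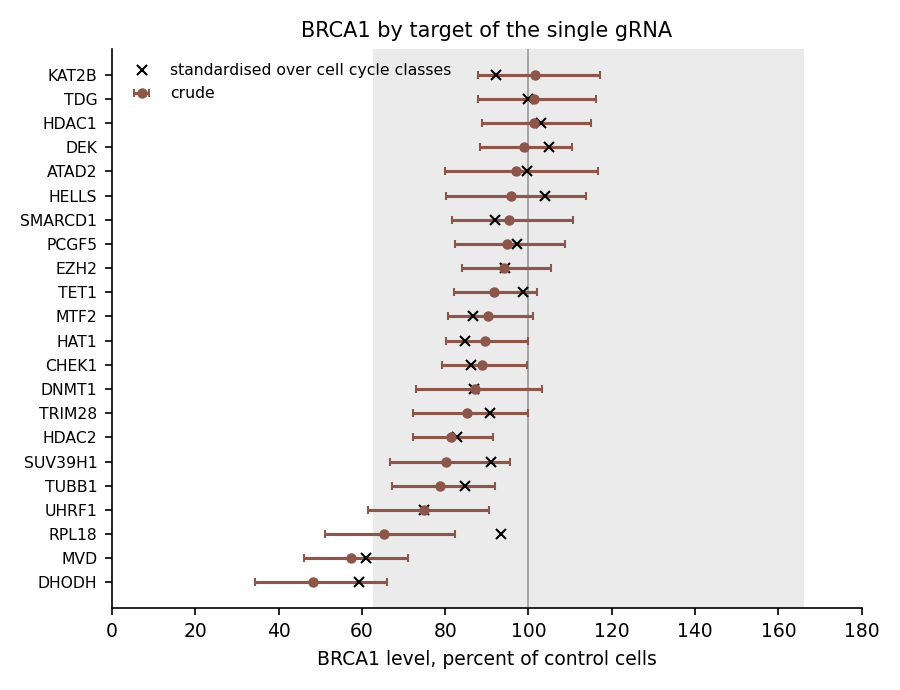
BRCA1 level as percent of control cells in 22 pools of cells by the target of their single gRNA, with exact 95% counting intervals (brown) and the value standardised over 4 cell cycle classes (crosses). The grey band is the range of 15 single non-targeting gRNAs. DHODH and MVD lie left of the band at 48.2% and 57.5%, and in the RPL18 pool the cross lies at 93.3%.

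For ATM, PCGF5, a polycomb subunit whose own transcript was at 110.0% (89.98 to 133.4), gave the lowest pool, at 70.2% (50.4 to 95.6) in 99 cells. Its gRNAs put ATM at 64.2%, 96.1%, 40.3% and 71.1%, and the interval included control without gRNA3 (79.2%) or without gRNA4 (69.5%). SMARCD1, a chromatin remodelling subunit, gave the highest pool, at 136.6% (104.6 to 176.1). CHEK1 itself had its 1 interval off control in the pool of DEK, a chromatin protein, at 76.3% (61.8 to 93.5) in 169 cells, of which 43.5% were above the PCNA median. Its lowest log2 ratio was -0.38 in the DHODH pool, with an interval that included control. XRCC5 kept to a narrow range over the 21 pools, from -0.13 (RPL18) to 0.20 (UHRF1, 114.9%, 106.3 to 124.1).

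CDC25A had the widest range for its counts, from -1.02 with 3 UMIs in the UHRF1 pool to 0.72 in the KAT2B pool, where 22 UMIs gave 183.7% (109.6 to 295.6). KAT2B was also the pool with the largest share of cells above the PCNA median among the pools of at least 40 cells, at 63.9%, and the standardised value was 175.4%. WEE1 was below control in the HELLS (71.5%), SMARCD1 (73.5%) and TET1 (82.4%) pools and above it in the TDG pool at 124.4% (101.1 to 152.0). ATR and CHEK2 had lowest values of -0.79 in the RPL18 pool and -0.82 in the DHODH pool, each with an interval that included control. The pools of DNMT3A, DNMT3B and TRMT112 held under 40 cells and were left out.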

How the data were processed

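The transcriptome and gRNA libraries were sequenced from 1 pool of cells. The deposited values are raw whole counts of UMIs per gene or gRNA and cell, made by the authors with Cell Ranger 3.1.0 (per the file headers) against GRCh38. The submitters' processing notes also list R 4.2.0 and Seurat 4.1.0. Reads of the gRNA library were assigned to the 120 designed gRNAs, and the matrix holds the barcodes called as cells by the authors.

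All 5744 barcodes were used. No doublet caller was run, and the 286 cells with 2 or more gRNAs above 3 UMIs entered no pool. Pools were compared by their summed UMIs in CPM, as ratios with exact conditional intervals and as log2 ratios with 1 CPM added. Cell cycle ranks used (UMIs + 0.5) over total UMIs in cells with at least 10000 UMIs. Standardised ratios were Mantel-Haenszel ratios over the 4 classes. The background was genes with at least 5 CPM, and list members needed 50 UMIs in the CHEK1 and control pools together.

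The 9 genes and the lists were chosen with earlier results of these data known. Genes were named by rule, namely all 9, the 3 most alike over the bins, the 10 highest and 10 lowest in the CHEK1 pool with each gRNA of at least 10 cells on the same side, and the furthest 3 in each damage list.
Alternatives were gRNA thresholds above 10 UMIs, a Gaussian mixture of 2 components, a gRNA with 80% of gRNA UMIs, cells with at least 10000 UMIs, means over cells, LogNormalize values, 10 CPM added, pools of at least 20 cells, thinning (seed 0), classes by S phase and G2/M lists, leaving out each gRNA, and, chosen after the data were seen, cells with 0 gRNAs as control. The ratios were tested on simulated Poisson counts of whole pools. Those counts hold no variation between cells or gRNAs, so the intervals were not checked for it. Python 3.11.15, NumPy 2.4.6, SciPy 1.17.1, pandas 2.3.3, scikit-learn 1.9.0 and matplotlib 3.10.9 were used. Promoter windows came from RefSeq on GRCh38.p14 and gene positions from GENCODE 44. Spacer sequences, protein changes and indels were not analysed here. Markers of fibroblasts (at least 3 of 8 in 22 cells), immune cells (0 cells), endothelium (0 cells) and HEK293T (116 cells) were read as a check. One gene list and 1 gene of another are not reported here.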

Additional observations from a re-analysis of the deposited data

How the results depend on the processing

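No paired analysis was possible because all cells came from 1 pool. Of 281 values recomputed under an alternative, 221 stayed within the counting interval or, for counts, within 1.5 times, 59 moved further and 1 turned to the other side of control. The one that turned was XRCC5 in cells with CHEK1 gRNAs, at 90.4% of control without gRNA3, the gRNA of most of those cells. Leaving out each CHEK1 gRNA put CHEK1 between 71.7% and 90.9% of control, and the number of other genes past 1.41-fold between 0 and 4. Thinned to 10000 UMIs, 2 genes instead of 5 were past 1.41-fold between CCNB1 bands, with fewer UMIs per cell to rank on. Pairs of a gene and a pool lower past 1.41-fold numbered 16, but 5 with 10 CPM added and 26 with pools of at least 20 cells (216 pairs), and those higher numbered 2, but 0 with 10 CPM added and 6 after standardising over the cell cycle classes. Leaving out single gRNAs, an alternative chosen after the data were seen, moved the interval onto control in 18 of 24 pairs. Leaving out each of 20 non-targeting gRNAs, also added then, kept BRCA1 between 47.0% and 49.0% in the DHODH pool and between 56.0% and 58.5% in the MVD pool. With cells with 0 gRNAs as control, likewise added, higher pairs past 1.41-fold numbered 1, CHEK1 in its own pool was at 84.0% with an interval just under 100%, and intervals below control numbered 7 for BRCA1 instead of 9, 2 for WEE1 instead of 5 and 7 for XRCC5 instead of 1. Few UMIs limit CDC25A in every pool, and 1 pool without replicates limits every comparison between targets.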
